A study of Mus musculus with 7 samples.

Results

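The genes described here carry TGF-beta, myostatin and bone morphogenetic protein (BMP) signaling. A list of 48 members was fixed by name: the ligands, the proteins that store or trap them, the type I and type II receptors, the SMAD proteins, the proteins that restrain SMADs, and the ID genes that BMP signals switch on. Of these, 47 of the 23930 genes of the deposited table had a row, and Id4 was not analysed here. A mean of at least 1 RPM (reads scaled to a common library total) over the 7 libraries was reached by 42 members, of at least 10 RPM by 31 and of at least 100 RPM by 10, and 5 (Ltbp3, Mstn, Nog, Grem1 and Smad9) lay under 1 RPM.

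Ligands of this family bind a pair of type II receptors, which phosphorylate a pair of type I receptors. The activated complex then phosphorylates SMAD2 and SMAD3 for TGF-beta, activins and myostatin, or SMAD1, SMAD5 and SMAD9 for BMPs. These join SMAD4 and enter the nucleus, while SMAD6, SMAD7, the SMURF ligases, Ski, Skil and Tgif1 hold the signal back. In skeletal muscle, myostatin limits fiber size, TGF-beta keeps myoblasts from differentiating and favors fibrosis, and BMP signals sustain proliferating progenitors through the ID proteins.

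The study asked how chronic hypercapnia, a raised level of CO2, alters satellite cells, the stem cells of muscle. Mice with an inducible Pax7-GFP reporter on a C57BL/6 background received tamoxifen at 12 weeks of age, spent 4 weeks in normocapnia (room air; NC1 to NC3) or hypercapnia (a CO2-enriched chamber; HC1 to HC4), and were 16 weeks old at collection of the sorted GFP+ cells from the hind legs. According to the study's methods, the muscles of both groups had been injured with cardiotoxin, which the labels do not mention. The title of the deposited table carries a time in hours that the methods give only for isolated cells in culture. Both the labels and the methods describe RNA taken after sorting, and the study calls the sequenced cells freshly isolated. The title is at odds with this, so whether the cells were cultured is not settled. The reporter is driven by a Cre knocked in behind Pax7, so that cells stay labeled after Pax7 is off. The genotype label gives C57BL/6 for NC1 and a number that is 1 larger in each next library, up to 12 in HC4, while the same labels call the mice littermates. Nothing in the labels says that the libraries came from separate mice, so the p-values cover only the spread between these libraries.

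The libraries stood apart from each other in ways the groups do not describe. Library totals ran from 14527445 to 23388710 reads. Pax7 was lowest in NC3 (4.34 RPM) and highest in NC1 (268.3 RPM), and the summed level of 12 satellite cell markers, none of them at 0, ran from 597 to 4532 RPM in normocapnia and from 835 to 1729 RPM in hypercapnia. The 11 macrophage markers summed to 11460 to 33390 RPM in normocapnia and 18770 to 23750 RPM in hypercapnia. Lyz2 stood at 8354 to 29110 RPM, while C1qa was scarcely measured (0.452 RPM at most, and 0 in NC3 and HC3). NC1, NC2, HC1 and HC2 held Xist, the RNA of the inactive X chromosome, at 445 to 701 RPM. NC3, HC3 and HC4 held Xist at 0.125 RPM or less and the Y-linked gene Ddx3y at 103 to 206 RPM, whereas Ddx3y was at 0 in the other 4. The labels give no sex. Hypercapnia was therefore also compared with normocapnia within the 4 libraries with Xist (2 against 2) and within the 3 with Y-linked reads, where NC3 is the lone normocapnia library. In bulk libraries of this kind, fewer cells of a type and less RNA per cell cannot be told apart.

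Each gene was compared between the groups with limma on log2(RPM + 1), and a gene was called where the unadjusted p was under 0.05 and the fold change over 1.5. By this rule 3 of 47 members were called: Gdf15 was higher in hypercapnia, and the receptors Acvr2a and Tgfbr1 were lower. The 1 member called higher is 2.13% of the list, beside 1.43% of all genes, and the 2 called lower are 4.26%, beside 1.14%. Where only genes averaging 1 RPM or more were counted, 3 of 42 members (7.14%) were called in either direction, beside 4.75% of genes. No member passed Benjamini-Hochberg adjustment over all 23930 genes (lowest adjusted p = 0.766 with limma), and 4 had an unadjusted p under 0.05. No member passed adjustment with edgeR or DESeq2 either. Without NC1, 7 members were called, with Ltbp1, Gdf11, Bmp2, Smad1 and Id1 added on the higher side and Tgfbr1 lost. Calls over all 23930 genes went with this, from 343 higher and 272 lower to 1495 higher and 495 lower. With the presence of Xist as a covariate 5 were called, with Tgfbr2 added on the higher side and Fst on the lower, and over all genes 746 higher and 464 lower. Over the 47 members the median log2 fold change was 0.04, and over all genes 0.02, and it was 0.09 over the 42 members and 0.16 over all genes at 1 RPM or more.

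**Figure D1:**
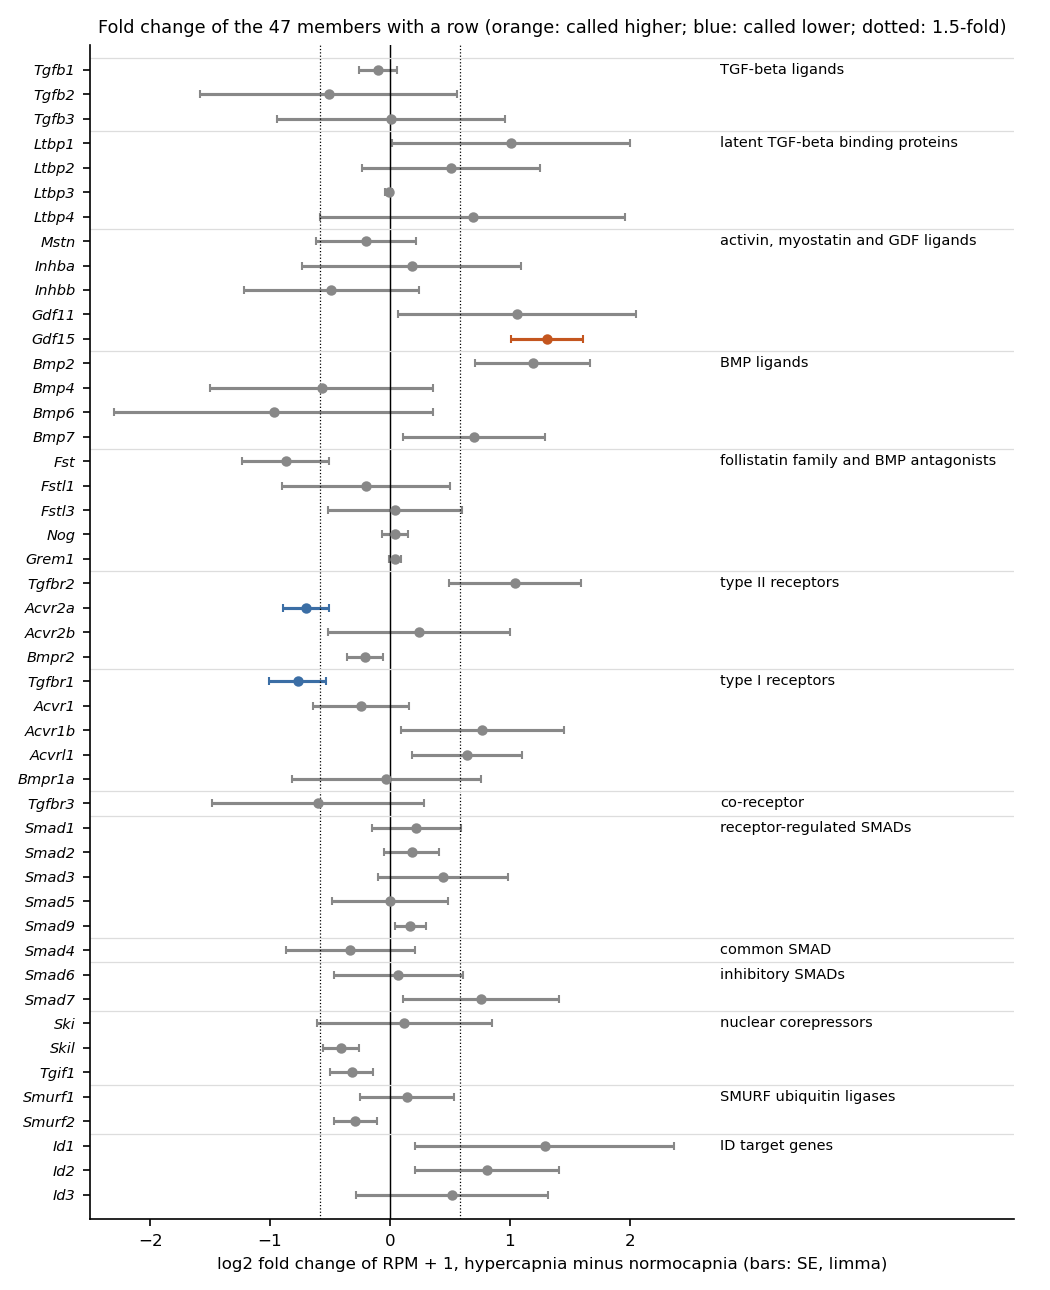
Log2 fold change of RPM + 1 in hypercapnia over normocapnia (horizontal axis) for each of the 47 members (vertical axis, in order of role), with the limma SE as bars and dotted lines at 1.5-fold. Gdf15 is the 1 member called higher and Acvr2a and Tgfbr1 the 2 called lower, while the bars of most ligands and SMADs span 0.

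Among the ligands, the transcript of Gdf15, a stress-induced cytokine of the family that acts on appetite and metabolism, stood at 11.2, 25.4 and 13.2 RPM in NC1 to NC3. It stood at 34.6, 48.8, 42.2 and 36.0 RPM in HC1 to HC4. The lowest hypercapnia library thus lay above the highest normocapnia library. Gdf15 was 2.48-fold higher in hypercapnia on this scale (log2 fold change 1.31, SE 0.30, limma unadjusted p = 0.00573, adjusted p = 0.766). Its size was 1.23 on the log2 scale within the libraries with Xist and 1.5 within those with Y-linked reads, where the sign is fixed because the groups do not overlap. Gdf15 is on the study's own list of genes picked from these libraries, so its direction is not independent evidence. Of the 11 macrophage markers, Adgre1 (log2 fold change 1.31, limma unadjusted p = 0.0403, adjusted p = 0.915) and Ms4a7 (1.52, unadjusted p = 0.0155, adjusted p = 0.909) were also called higher and did not overlap between the groups. The other 9, Lyz2 and Cd68 among them, were not called, where 1.43% of all genes were called higher. Cspg4, 1 of 6 pericyte and smooth muscle markers with a row, was likewise called higher without overlap. Its log2 fold change was 0.79 (limma unadjusted p = 0.0472, adjusted p = 0.915). The part of these cell types in the Gdf15 difference was not tested.

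Bmp2, a BMP ligand, lies outside the rule for named genes and was chosen after its values were seen. It stood at 5.44, 3.25 and 0.826 RPM in normocapnia and at 6.16, 6.58, 6.25 and 11.7 RPM in hypercapnia. The groups do not overlap, but NC1 and HC1 lie close together. It was not called (log2 fold change 1.19, SE 0.48, limma unadjusted p = 0.0516, adjusted p = 0.915). Under 8 of the 17 alternatives, among them the filter, edgeR and DESeq2, it was called higher.

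The 3 TGF-beta ligands gave no call. Tgfb1, the main TGF-beta of injured muscle, stood at 631.8, 720.1 and 988.5 RPM in normocapnia and at 682.7, 733.8, 754.8 and 695.0 RPM in hypercapnia. The 4 hypercapnia libraries lay inside the range of normocapnia, and the log2 fold change was -0.10 (SE 0.16, limma unadjusted p = 0.56, adjusted p = 0.942). Tgfb2 and Tgfb3 behaved differently from Tgfb1 across libraries. Tgfb2 stood at 58.2 RPM in NC1 and at 3.37 to 16.9 RPM in the other 6, and Tgfb3 at 95.2 RPM in NC1 and at 8.12 to 40.2 RPM in the others.

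Most of the latent TGF-beta binding proteins tether TGF-beta to the matrix. Ltbp4 stood at 387.8, 119.8 and 15.8 RPM in normocapnia and at 50.9, 101.8, 305.9 and 305.6 RPM in hypercapnia. The groups overlap over their whole width (log2 fold change 0.69, SE 1.27). Ltbp1 reached 70.2 RPM in NC1 and only 2.82 RPM in NC3, and Ltbp2 ran from 0.826 to 15.5 RPM. Ltbp3 was at or near 0 in every library, below the level of 3 reads (0.128 to 0.207 RPM).

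Myostatin (Mstn), the muscle ligand that limits growth and is made mainly by fibers, was scarcely detected in these sorted cells. It stood at 1.65, 0.556 and 0 RPM in normocapnia and at 0.214, 0.1, 0.25 and 1.29 RPM in hypercapnia. These are 37, 13 and 0 reads in normocapnia and 5, 2, 4 and 19 reads in hypercapnia. The groups overlap, and the log2 fold change of -0.20 was smaller than its SE of 0.42. Gdf11, the closest relative of myostatin, stood at 18.4, 0.855 and 1.17 RPM in normocapnia and at 4.24, 4.72, 15.7 and 11.5 RPM in hypercapnia. Inhba and Inhbb, which encode the activin subunits, ran from 1.56 to 15.9 RPM and from 0 to 6.29 RPM. The 5 ligands of this group together gave 1 call, that of Gdf15.

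Of the other BMP ligands, Bmp6, which also regulates hepcidin, spread the most. It stood at 79.5, 4.06 and 11.6 RPM in normocapnia and at 1.54, 3.17, 25.6 and 20.5 RPM in hypercapnia (log2 fold change -0.97, SE 1.33). NC1 alone sets the higher mean of normocapnia, and without it the log2 fold change was 0.14. Bmp4 ran from 1.71 to 22.2 RPM with the same libraries high, and Bmp7 from 0 to 3.81 RPM.

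Among the proteins that trap ligands, Fst encodes follistatin, which binds activins and myostatin. It stood at 7.90, 8.38 and 7.37 RPM in normocapnia and at 2.70, 2.16, 4.56 and 7.52 RPM in hypercapnia. 3 of the 4 hypercapnia libraries lay below all of normocapnia, and HC4 lay inside its range. Fst was not called (log2 fold change -0.87, SE 0.36, limma unadjusted p = 0.0569, adjusted p = 0.915). Without HC4 it was called lower, at a log2 fold change of -1.14, as it was under 6 of the 17 alternatives in all. Fstl1, a secreted follistatin-like glycoprotein, stood at 384.5, 131.1 and 74.8 RPM in normocapnia and 99.9, 75.2, 228.6 and 196.6 RPM in hypercapnia, with overlapping groups (log2 fold change -0.20, SE 0.70). Fstl3 ran from 0.344 to 3.21 RPM, and the BMP antagonists Nog and Grem1 did not pass 0.271 RPM in any library.

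**Figure D2:**
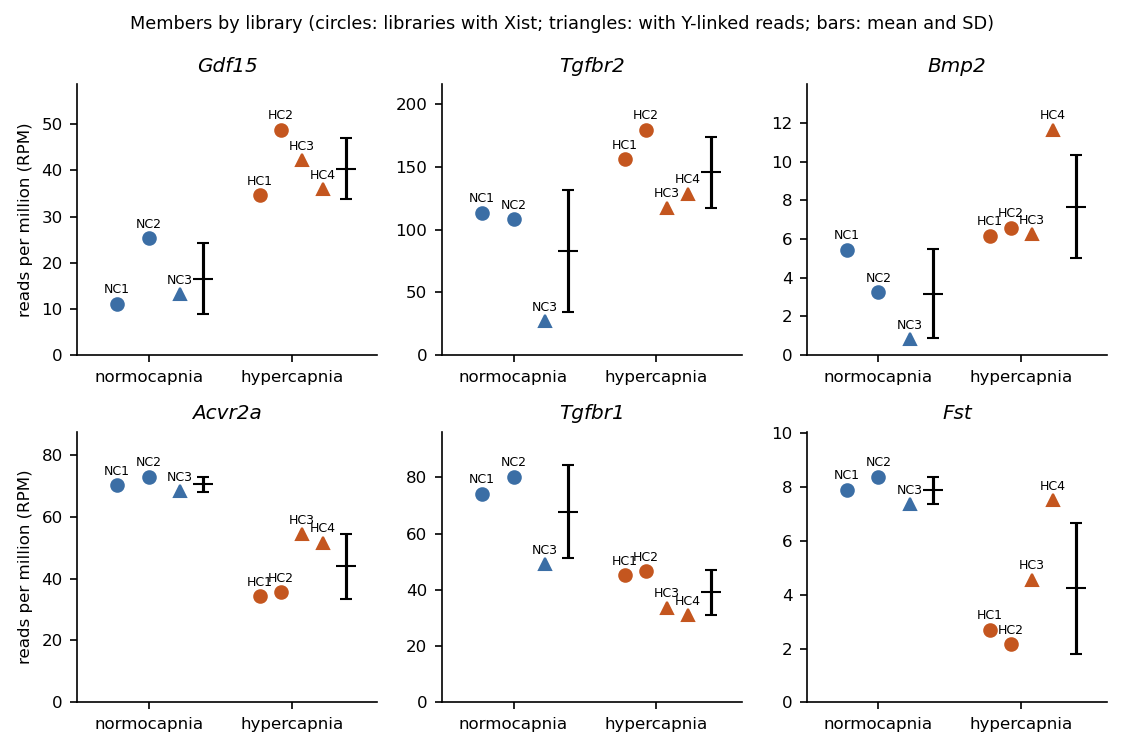
RPM of Gdf15, Tgfbr2, Bmp2, Acvr2a, Tgfbr1 and Fst (vertical axes, from 0) in each of the 3 normocapnia and 4 hypercapnia libraries, with circles for libraries with Xist, triangles for libraries with Y-linked reads, and the mean and SD beside each group. Gdf15, Tgfbr2 and Bmp2 are higher in each hypercapnia library than in any of normocapnia, Acvr2a and Tgfbr1 are lower in each, and Fst overlaps in HC4.

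The receptors held the other 2 calls. Acvr2a, the type II receptor of activins that also binds myostatin and BMPs, stood at 70.1, 72.8 and 68.2 RPM in normocapnia, a mean of 70.4 ± 2.31 RPM (SD, n = 3). It stood at 34.2, 35.6, 54.3 and 51.5 RPM in hypercapnia, a mean of 43.9 ± 10.5 RPM (SD, n = 4). The groups lay clear of each other, with HC1 and HC2 lowest. Acvr2a was 1.62-fold lower (log2 fold change -0.70, SE 0.19, limma unadjusted p = 0.0129, adjusted p = 0.877). The log2 difference was -1.01 within the libraries with Xist and -0.36 within those with Y-linked reads, a sign that was again fixed by the absence of overlap.

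Tgfbr1, the type I receptor that phosphorylates SMAD2 and SMAD3, stood at 74.3, 80.2 and 49.2 RPM in normocapnia. It stood at 45.3, 46.6, 33.6 and 31.0 RPM in hypercapnia. Its groups do not overlap, although NC3 lies only just above HC2. Tgfbr1 was 1.71-fold lower (log2 fold change -0.77, SE 0.24, limma unadjusted p = 0.0198, adjusted p = 0.915). Without NC1, NC2 or HC3 the call was lost, at log2 fold changes that stayed negative. Its size within the libraries with Xist was -0.74 and within those with Y-linked reads -0.59, with the sign fixed in the same way. In a limma fit with Xist as a covariate, chosen after seeing the data, it was -0.68 (unadjusted p = 0.000117, adjusted p = 0.133). Tgfbr1 too is on the study's own list from these libraries.

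Tgfbr2, the type II receptor that binds TGF-beta first and recruits TGFBR1, stood at 113.7, 108.3 and 27.0 RPM in normocapnia. It stood at 156.4, 179.9, 117.6 and 128.7 RPM in hypercapnia. Each hypercapnia library lay above each of normocapnia, by little over NC1 and by the most over NC3. It was not called (log2 fold change 1.04, SE 0.55, limma unadjusted p = 0.114, adjusted p = 0.915). Without NC3 the log2 fold change was 0.37. With Xist as a covariate Tgfbr2 was called higher, at 1.21 (unadjusted p = 0.0241, adjusted p = 0.508). Among members at 10 RPM or more, 2 of 31 (6.45%) lay higher in hypercapnia without overlap (Gdf15 and Tgfbr2), beside 4.96% of such genes, and 2 of 31 (6.45%) lower (Acvr2a and Tgfbr1), beside 4.67%.

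The ratio of Tgfbr1 to Tgfbr2 within a library was looked at after these values were seen, and it is given as a description with no test. It was 0.653, 0.740 and 1.82 in normocapnia and 0.290, 0.259, 0.286 and 0.241 in hypercapnia. Amplicons differ in efficiency, so the ratio compares libraries and does not say which receptor is more abundant. Since Tgfbr1 was lower and Tgfbr2 higher in every hypercapnia library, the ratio had to be lower in hypercapnia, and its separation adds nothing to the values above.

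Bmpr2, the type II receptor for BMPs, stood at 241.3, 184.7 and 250.8 RPM in normocapnia and at 165.8, 178.4, 214.2 and 217.0 RPM in hypercapnia. It was not called (log2 fold change -0.21, SE 0.15, limma unadjusted p = 0.219, adjusted p = 0.915). The type I receptors Acvr1, Acvr1b, Acvrl1 and Bmpr1a had log2 fold changes from -0.24 to 0.77 and overlapping groups, as did the type II receptor Acvr2b (0.24, SE 0.76). Acvr1b, which serves activins and myostatin, illustrates the spread: it stood at 36.9, 75.6 and 9.57 RPM in normocapnia against 44.9 to 63.7 RPM in hypercapnia. Tgfbr3, the co-receptor betaglycan, stood at 115.9, 60.5 and 22.2 RPM in normocapnia and at 14.6, 18.3, 80.7 and 70.1 RPM in hypercapnia. Its 2 hypercapnia libraries with Xist were the lowest of all and its 2 with Y-linked reads lay inside the normocapnia range.

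Promoter sequences are shown for the called genes, for Tgfbr2, and for Id3, which was not called, as an example of a direct target of the pathway. Each is the 250 bases before the outermost start in RefSeq (build GRCm38.p6), written in the direction of transcription. The build the authors used is not given in the sources used here. Capitals mark letters known as binding sites, namely CAGAC for SMAD proteins, which reads GTCTG when it lies on the opposite strand, and the GC-rich motif GGCGCC for SMADs of the BMP branch. Searches covered both strands.
Gdf15, chr8:70632457-70632706, minus strand: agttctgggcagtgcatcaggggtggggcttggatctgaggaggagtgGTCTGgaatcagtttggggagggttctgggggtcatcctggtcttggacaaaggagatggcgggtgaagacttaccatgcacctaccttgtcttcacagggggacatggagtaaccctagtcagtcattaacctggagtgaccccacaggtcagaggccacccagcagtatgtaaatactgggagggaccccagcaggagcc
Tgfbr2, chr9:116175364-116175613, minus strand: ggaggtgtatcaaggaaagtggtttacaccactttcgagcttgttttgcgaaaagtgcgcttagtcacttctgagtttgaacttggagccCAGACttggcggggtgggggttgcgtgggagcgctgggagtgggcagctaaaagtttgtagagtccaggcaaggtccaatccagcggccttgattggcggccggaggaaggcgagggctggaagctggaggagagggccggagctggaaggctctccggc
Acvr2a, chr2:48813859-48814108, plus strand: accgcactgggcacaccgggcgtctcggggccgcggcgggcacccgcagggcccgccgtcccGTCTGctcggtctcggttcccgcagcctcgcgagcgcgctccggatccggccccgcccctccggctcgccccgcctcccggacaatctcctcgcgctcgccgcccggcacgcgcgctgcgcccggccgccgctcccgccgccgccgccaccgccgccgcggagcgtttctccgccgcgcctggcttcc
Tgfbr1, chr4:47352972-47353221, plus strand: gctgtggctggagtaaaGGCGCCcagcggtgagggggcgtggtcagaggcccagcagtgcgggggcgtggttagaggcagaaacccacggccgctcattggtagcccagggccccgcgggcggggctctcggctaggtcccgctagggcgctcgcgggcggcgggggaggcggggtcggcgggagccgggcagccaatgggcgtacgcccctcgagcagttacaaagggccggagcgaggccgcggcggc
Id3, chr4:136143572-136143821, plus strand: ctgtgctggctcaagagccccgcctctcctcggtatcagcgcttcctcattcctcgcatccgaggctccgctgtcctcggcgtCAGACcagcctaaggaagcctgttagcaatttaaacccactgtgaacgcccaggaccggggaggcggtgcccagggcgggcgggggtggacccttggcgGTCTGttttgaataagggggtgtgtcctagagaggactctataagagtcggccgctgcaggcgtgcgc
Of the 48 members, 36 had an entry. CAGAC was present in 16 of these 36 windows (44.4%) and in 42.2% of all 27025 windows of this length. GGCGCC was present in 9 of 36 (25.0%) and in 9.57% of all windows. The members' windows were also richer in G and C, with a median of 68.0% against 52.0%, and no more is read from these shares. The Gdf15, Tgfbr2 and Acvr2a windows each held CAGAC once on 1 strand, the Id3 window held it at 2 places, and the Tgfbr1 window held GGCGCC once and no CAGAC. The matches describe letters, and binding was not measured.

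The SMAD proteins gave no call. Smad4, the partner that all activated SMADs need, stood at 92.0, 75.6 and 19.9 RPM in normocapnia and at 39.98, 40.7, 44.8 and 39.9 RPM in hypercapnia. Hypercapnia held a narrow band between NC3 and the other 2 normocapnia libraries (log2 fold change -0.33, SE 0.54). Without NC3 it was called lower, at -1.0. Smad5, a SMAD of the BMP branch, stood at 156.6, 53.5 and 48.1 RPM in normocapnia and 57.5, 60.6, 101.2 and 84.1 RPM in hypercapnia (log2 fold change 0.0, SE 0.48). Smad2 and Smad3, of the TGF-beta branch, had log2 fold changes of 0.18 (SE 0.23) and 0.44 (SE 0.54), and Smad1 of 0.22 (SE 0.37).

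Smad7, which TGF-beta itself induces and which then blocks TGFBR1, stood at 22.6, 31.9 and 4.20 RPM in normocapnia and at 23.4, 27.0, 27.8 and 25.5 RPM in hypercapnia. NC3 alone lay low, and the log2 fold change of 0.76 (SE 0.65) became -0.05 without it. Smad6, the inhibitor of the BMP branch, ran from 0.275 to 4.33 RPM. Smurf1, a ubiquitin ligase for SMADs and receptors, stood at 46.2, 44.3 and 16.6 RPM in normocapnia and 30.9, 33.7, 35.4 and 44.8 RPM in hypercapnia (log2 fold change 0.14, SE 0.39, negative under 5 of the 17 alternatives). Smurf2 had a log2 fold change of -0.29 (SE 0.18).

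The nuclear corepressors were measured more evenly across libraries, with the exception of Ski, which ran from 24.5 RPM (NC3) to 200.7 RPM (NC2). Tgif1 stood at 394.3, 566.3 and 539.8 RPM in normocapnia and at 357.4, 348.5, 487.8 and 408.1 RPM in hypercapnia (log2 fold change -0.32, SE 0.18, limma unadjusted p = 0.136, adjusted p = 0.915). Skil, which encodes SnoN, stood at 107.6, 153.4 and 121.4 RPM against 109.0, 86.2, 99.5 and 86.9 RPM. Its unadjusted p was 0.0385 with limma (adjusted p = 0.915), but at a log2 fold change of -0.41 (SE 0.15) it stayed under 1.5-fold and was not called.

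The ID genes are the standard transcriptional readout of BMP signals and encode proteins that block MyoD-type factors. Id1 stood at 218.9, 48.5 and 8.54 RPM in normocapnia and at 82.9, 87.0, 151.5 and 152.7 RPM in hypercapnia. Id2 stood at 135.3, 149.5 and 29.5 RPM against 174.8, 142.4, 142.9 and 137.3 RPM, and Id3 at 183.5, 59.5 and 22.4 RPM against 57.8, 59.6, 150.6 and 128.5 RPM. All 3 were lowest in NC3, and none was called. Their log2 fold changes were 1.29 (SE 1.08), 0.81 (SE 0.60) and 0.52 (SE 0.80), with limma unadjusted p-values of 0.28, 0.231 and 0.542 and adjusted p-values of 0.915, 0.915 and 0.932. Without NC3 they were 0.14, 0.06 and -0.21, and without NC1 Id1 was called higher at 2.40.

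**Figure D3:**
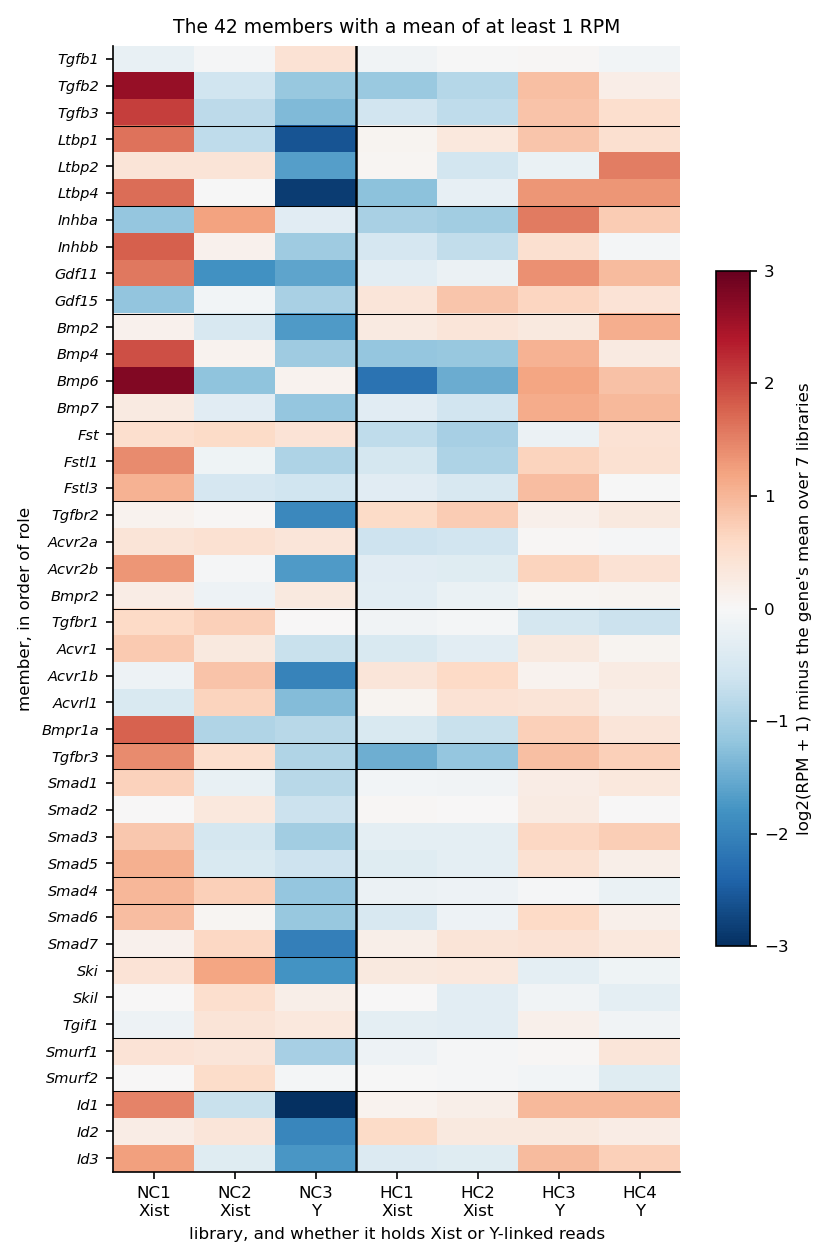
Log2(RPM + 1) minus the gene's mean over the 7 libraries (color) for the 42 members that average 1 RPM or more (rows, in order of role) in each library (columns, with the line between normocapnia and hypercapnia). NC1 is the highest library for 22 members and NC3 the lowest for 27, while Gdf15 is lower, and Acvr2a and Tgfbr1 are higher, in each normocapnia library than in any of hypercapnia.

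The libraries of 1 group differed more than the groups did for most members. NC1 was the highest of the 7 libraries for 22 of 42 members (52.4%, beside 31.4% of all genes at 1 RPM or more), and NC3 was the lowest for 27 (64.3%, beside 49.0%). HC3 and HC4 both lay above HC1 and HC2 for 27 members (64.3%, beside 44.5%). Both NC1 highest and HC3 and HC4 above HC1 and HC2 held for 21 of 42 members (50%, beside 20.3%). These 21 include Tgfb2, Tgfb3, Ltbp1, Ltbp4, Gdf11, Bmp4, Bmp6, Bmpr1a, Tgfbr3, Smad1, Smad3, Smad5, Id1 and Id3. The same order held for 11 of the 12 satellite cell markers, 5 of 7 myofiber markers, 2 of 6 markers of pericytes and smooth muscle, 1 of 5 of neutrophils, 1 of 9 of fibro-adipogenic cells, and 0 of 9 endothelial, 0 of 2 Schwann cell and 0 of 10 macrophage markers at 1 RPM or more. The step from HC1 and HC2 to HC3 and HC4 alone was seen in 12 of 12 satellite cell, 6 of 7 myofiber, 9 of 9 endothelial, 6 of 6 pericyte and smooth muscle, 5 of 5 neutrophil, 2 of 2 Schwann cell and 7 of 9 fibro-adipogenic markers, and in 0 of 10 macrophage markers. HC3 and HC4 both lay below HC1 and HC2 for 8 of 10 macrophage and 1 of 9 fibro-adipogenic markers. The same held for 5 of 42 members (11.9%, beside 23.6% of all genes at 1 RPM or more). The part of these cell types in the members' levels was not tested.

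Within the libraries with Xist and within those with Y-linked reads, the members often differed in opposite directions. Of 42 members, 14 (33.3%, beside 18.6% of genes at 1 RPM or more) were lower in HC1 and HC2 than in NC1 and NC2 and higher in HC3 and HC4 than in NC3. Bmp6 is one of them, with log2 differences of -2.63 and 0.92, Ltbp4 another with -1.57 and 4.19, and Tgfbr3 another with -2.29 and 1.72. The reverse pattern was seen in 0 members, beside 3.48% of genes. Gdf15, Bmp2 and Tgfbr2, 3 of 42 (7.14%, beside 10.1% of genes), were higher within both, as had to follow for these 3 from the absence of overlap over all 7 libraries. Acvr2a, Bmpr2, Tgfbr1, Tgif1 and Smurf2, 5 of 42 (11.9%, beside 7.89%), were lower within both, which for Acvr2a and Tgfbr1 likewise had to follow. The difference between the subsets was not tested. NC3 is the lone normocapnia library with Y-linked reads. It also has the lowest sum of satellite cell markers, the highest sum of macrophage markers (33390 RPM), the fewest reads, the fewest genes at 1 RPM or more (10619, against 11322 to 13932 in the others) and the largest share of reads in its top 10 genes (16.6%, against 8.4% to 12.1%). These cannot be told apart.

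**Figure D4:**
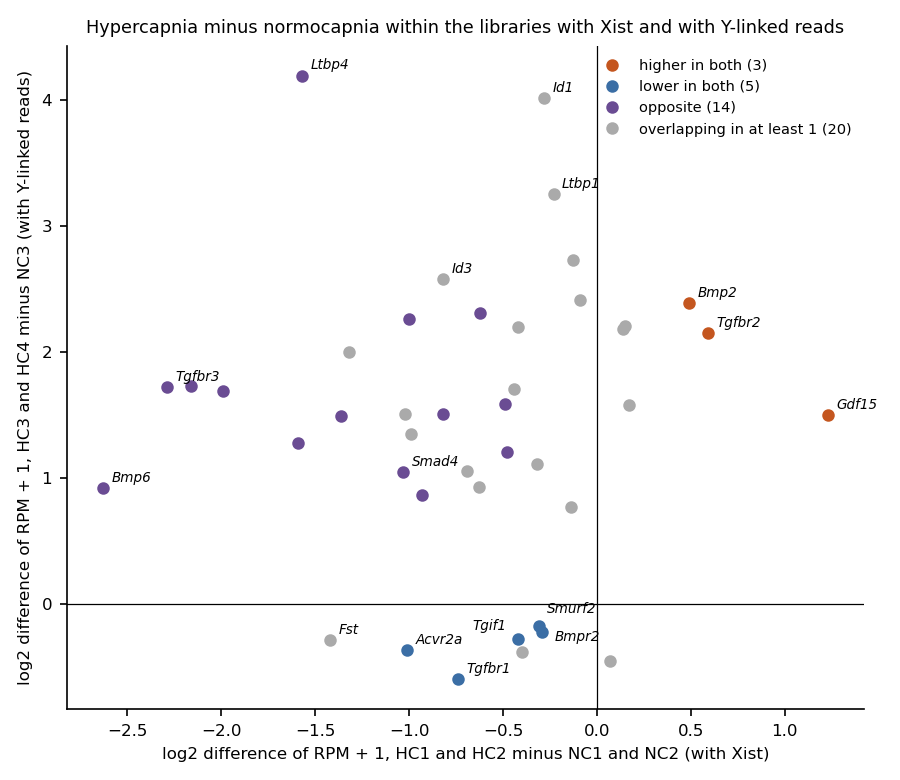
Log2 difference of RPM + 1 between hypercapnia and normocapnia within the 4 libraries with Xist (horizontal axis) and within the 3 with Y-linked reads (vertical axis), 1 point for each of the 42 members that average 1 RPM or more. Of the members whose groups do not overlap in either subset, Gdf15, Bmp2 and Tgfbr2 lie above 0 on both axes, Acvr2a, Bmpr2, Tgfbr1, Tgif1 and Smurf2 below 0 on both, and 14 in the upper left.

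A wider list of 84 genes of the pathway, 79 of them with a row, gave 1 call, on the lower side, where 1.14% of all genes were called. Zfyve16, which encodes endofin, an endosomal anchor for SMADs, stood at 15.1, 27.8 and 34.7 RPM in normocapnia and at 14.5, 15.6, 12.7 and 10.4 RPM in hypercapnia. HC2 lay above NC1, so the groups overlap slightly. It was called lower (log2 fold change -0.85, SE 0.30, limma unadjusted p = 0.0349, adjusted p = 0.915). This list gave 0 calls without NC3, HC1 or HC4, 6 without NC1, 5 without NC2 and 1 without HC2 or HC3. Over all genes, calls were 343 higher and 272 lower with all libraries, 1495 and 495 without NC1, and 671 and 534 without NC2. They were 235 and 381 without NC3, 231 and 154 without HC1, and 216 and 160 without HC2. Without HC3 they were 294 and 278, and without HC4 277 and 200. Tgfbrap1, a protein that binds TGF-beta receptors, was the 1 gene of this list of 79 without overlap, where 605 of all 23930 genes lay higher and 550 lower without overlap. It stood at 28.6 to 36.1 RPM in normocapnia and 37.0 to 48.9 RPM in hypercapnia, and its log2 fold change of 0.32 (SE 0.13) was under 1.5-fold. The median log2 fold change of the 79 genes was 0.07.

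**Figure D5:**
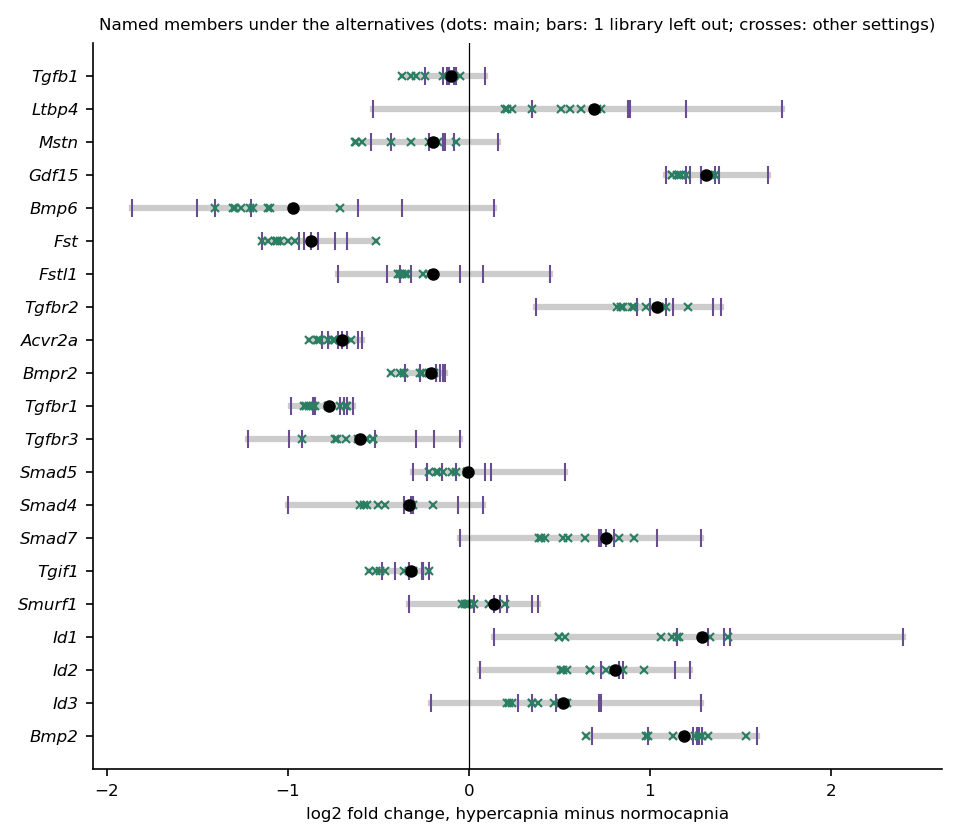
Log2 fold change (horizontal axis) of the 20 members named by rule and of Bmp2 in the fit used here (dots), with 1 library left out (bars) and under the other settings (crosses). Gdf15, Bmp2, Tgfbr2, Id1 and Id2 stay above 0 throughout, and Acvr2a, Tgfbr1, Fst, Bmpr2, Tgfbr3 and Tgif1 below 0. Bmp6, Smad5, Smurf1 and Id3 are among those that cross 0.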

How the data were processed

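Bulk RNA was measured in 3 normocapnia and 4 hypercapnia libraries, grouped by their labels. The authors made AmpliSeq libraries (1 amplicon per gene), sequenced them on an Ion instrument and deposited a table of RPM, reads scaled to a common total, using the Transcriptome Analysis Console, per the labels. The sources used here give no aligner, build or settings. RPM compares a gene between libraries, not genes with each other. Each value was a whole number of reads within 0.05 reads (100%), so reads were recovered, and 1 read is worth 0.0428 to 0.0688 RPM. No pair of libraries agreed within counting noise.

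The members, gene lists and tests were chosen with earlier results of these data known. Hypercapnia was compared with normocapnia by limma 3.58.1 in R 4.3.3. The model took log2(RPM + 1) of all 23930 genes, unfiltered and two-sided, with Benjamini-Hochberg adjustment. Fold changes on this scale understate low genes. Named genes are those called, those at 10 RPM or more whose groups do not overlap, the highest of each role by mean RPM and 9 fixed genes. Alternatives were pseudocounts of 0.1 and 5 RPM, dropping genes that average under 1 RPM, quantile and median-of-ratios scaling, DESeq2 1.42.0 and edgeR 4.0.16 (filtered or not) on recovered reads, leaving out each library, and the replicate number as a block. A fit with Xist as a covariate was chosen after seeing the data. The scripts were tested on simulated data. The authors' fold changes and p-values were not used.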

Additional observations from a re-analysis of the deposited data

Results flagged for a closer look

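Among the 20 named members and Bmp2, 4 had 1 hypercapnia library far from the other 3, by Dixon's 95% criterion. They were Mstn in HC4 (1.286 RPM), Smad4 in HC3 (44.8 RPM), Id2 in HC1 (174.8 RPM) and Bmp2 in HC4 (11.65 RPM). Chance flags about 1 in 20 groups, and 21 were examined. Smad4 was otherwise measured at 39.9 to 40.7 RPM in hypercapnia, so its gap is small in absolute terms. The normocapnia group, with 3 libraries, was not examined this way.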

How the results depend on the processing

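Over 17 alternatives, Gdf15 was called higher in all (log2 fold change 1.09 to 1.65) and Acvr2a lower in all (-0.88 to -0.59). Tgfbr1 stayed lower (-0.98 to -0.64) and lost its call without NC1, NC2 or HC3. Adjusted p-values of these 3 ran from 0.133 to 0.961, and no member passed adjustment under any alternative. Members called were 3 in the fit reported and 5 with median-of-ratios scaling, quantile scaling, DESeq2 or Xist as a covariate. Over all genes these fits called 343 higher and 272 lower, 315 and 295, 336 and 357, 519 and 785, and 746 and 464, in that order. Members called higher were 1 in the fit reported and 2 in those 4 fits, with the pseudocount of 5 RPM, with the filter and in both edgeR fits. The pseudocount of 5 RPM called 268 genes higher and 170 lower in the whole table, and the filter 345 and 213 of 12504. Leaving out 1 library gave 2 to 7 members called, 1 to 6 higher and 1 to 3 lower, beside 216 to 1495 genes higher and 154 to 534 lower in the whole table. Genes of the wider list called were 1 in the fit reported, 2 with the pseudocount of 0.1 RPM and 0 with median-of-ratios scaling. They were 3 with unfiltered edgeR, DESeq2 or Xist as a covariate, and 0 to 6 with 1 library left out. Over all genes, 438 were called higher and 404 lower with the pseudocount of 0.1 RPM. The cause of these moves was not tested.

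Of 356 values of the 20 named members and Bmp2, 319 kept direction and call, 3 lost and 17 gained the call, and 17 reversed. Smurf1 became -0.02 with quantile scaling, -0.003 with edgeR, -0.01 with unfiltered edgeR and -0.04 with DESeq2. The other reversals came from leaving out 1 library. Without NC1, Bmp6 (-1.86 to 0.14 over the libraries left out), Mstn (-0.54 to 0.16), Fstl1 (-0.72 to 0.45), Smad5 (-0.31 to 0.53) and Smad4 (-1.0 to 0.08) turned positive. Without NC3, Tgfb1 (-0.24 to 0.09) turned positive and Ltbp4 (-0.53 to 1.73), Smad7 (-0.05 to 1.28), Id3 (-0.21 to 1.28) and Smurf1 (-0.33 to 0.38) negative. Smad5 also turned positive without HC1 or HC2, and Fstl1 without HC2.

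Scaling moved the median difference over all genes averaging 1 RPM or more, on the log2 scale, from 0.16 to 0.04 (median of ratios) and -0.01 (quantile). With edgeR, 294 genes were called higher and 508 lower, and without its filter 407 and 642. Genes past adjustment were 0 in the limma fit reported, 0 with edgeR and 28 with DESeq2. With limma they were 8 without NC1 and 1 without NC3. With the replicate number as a block, 4 members were called, Fst being added, beside 351 genes higher and 247 lower in the whole table. The labels call the mice littermates but do not say that a replicate number marks a shared litter or day. Deviations of same-numbered libraries correlated at -0.35, 0.50 and -0.04. Since differently numbered pairs ran from -0.42 (NC2 and HC3) to 0.45 (NC2 and HC1), these values do not settle whether the numbers pair the libraries. Ltbp3, Nog and Grem1 had 0 to 4 reads in each library, where a difference was not detectable at this depth.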

Other observations

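The other genes of the pathway with a row were 79, of which 51 averaged 1 RPM or more. The 79 comprise 19 other ligands, 14 secreted antagonists, 8 receptors or co-receptors, 8 genes of latent TGF-beta activation, 16 intracellular regulators and 14 target genes. Ppm1a, a phosphatase that removes the activating phosphates of SMADs, stood at 110.6, 86.6 and 129.7 RPM in normocapnia and at 64.8, 67.4, 94.7 and 75.9 RPM in hypercapnia (log2 fold change -0.52, SE 0.19, limma unadjusted p = 0.0386, adjusted p = 0.915). It stayed under 1.5-fold and was not called.

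Ctgf, a matrix protein of fibrosis and a TGF-beta target, was at 52.8, 134.0 and 6.20 RPM in normocapnia against 61.9 to 87.0 RPM. Its 4 hypercapnia libraries lay inside the range of normocapnia. Klf10, an early TGF-beta response gene, stood at 207.1 to 255.9 RPM in normocapnia and at 161.3 to 213.3 RPM in hypercapnia (log2 fold change -0.28, SE 0.12). Nrros, which anchors latent TGF-beta on macrophages and microglia, stood at 15.3, 24.4 and 4.82 RPM against 27.6, 30.1, 25.6 and 23.0 RPM, where HC4 fell short of NC2 (log2 fold change 1.04, SE 0.51, limma unadjusted p = 0.0922, adjusted p = 0.915).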
